A study of Mus musculus with 10 samples.

Results

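The Ifit, Ifitm and Ifi27 families are groups of genes that are known for their induction by interferons. The 9 genes described here (Ifit1, Ifit2, Ifit3, Ifitm1, Ifitm2, Ifitm3, Ifitm6, Ifi27 and Ifi27l2a) were taken by name from the 24538 genes of the count files. All 9 were among the 11571 genes tested. RNA-seq compared metastasis-associated macrophages (MAMs) with resident alveolar macrophages (RAMs) of female wild type C57BL6/J mice, with 5 libraries each. MAMs were CD11B+CD11C- macrophages from lung metastases under 1 mm of E0771-LG, a mouse breast cancer line. The metastases formed within 11 days of the intravenous injection of 1000000 cells at an age of 6 to 8 weeks, and per the labels each sample pooled 2 to 4 mice. RAMs were CD11B-CD11C+ macrophages from lungs without metastases, and the labels give both groups an age of 8 to 10 weeks. All cells were sorted as CD45+, F4/80+, LY6C- and MRC1+ with high forward scatter, after digestion with the transcription inhibitors alpha-amanitin and actinomycin D. The groups differ in macrophage type and in the presence of metastases together, so these cannot be told apart. The p-values measure the spread between these libraries.

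IFIT proteins carry tetratricopeptide repeats, and IFIT1 binds viral RNA whose cap lacks the host's methyl marks. IFITM proteins sit in the plasma membrane and in endosomes, where they hinder the entry of enveloped viruses, and IFI27 proteins are small and hydrophobic. Type I interferon signals through its receptor and the JAK kinases to a complex of transcription factors, which binds the interferon-stimulated response element (ISRE) in the promoters of such genes, and macrophages are known to respond strongly.

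The genes lie in 3 clusters on GRCm38 (GENCODE M21). Ifit2 (chr19:34550694-34576419), Ifit3 (chr19:34583531-34588731) and Ifit1 (chr19:34640871-34650009) are all on the plus strand. Ifitm2 (chr7:140954837-140955987), Ifitm3 (chr7:141009586-141010770) and Ifitm6 (chr7:141015699-141017924) are on the minus strand, and Ifitm1 (chr7:140967221-140969825) is on the plus strand. Ifi27 (chr12:103434211-103440239, plus) and Ifi27l2a (chr12:103442167-103443680, minus) are neighbours. Parts of these genes resemble other genes, and of all windows of 100 bases along the longest transcript Ifit3 shared 31.6% with Ifit3b and Ifit1 shared 3.29% with Ifit1bl2. Ifitm2 shared 34.9% with Gm45717, Gm11951 and Gm8865. It overlaps Gm45717, which is not among the genes of the count files, and the share that lies elsewhere was not determined. Only uniquely mapped reads were counted, so the counts of Ifit3 and Ifitm2 are less certain. The other 6 members shared none.

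RefSeq (GRCm38.p6) gave promoter windows, from 250 bases before to 50 after the start site, for 7 of the 9 genes. An ISRE core was spelled as GAAA, any 2 bases and GAAA on one strand, and as TTTC, any 2 bases and TTTC on the other. It was in the windows of 4 of the 7 genes (Ifit1, Ifit3, Ifitm2 and Ifitm3). In the whole table it was in 3.99% of 27025 genes with a window and in 3.44% of 32851 windows. The 200 bases before the start site are shown on the gene's strand for 3 members with the core and for Ifit2, which rose to a like extent, with none. Capitals mark the cores. The coordinates are chr19:34640689-34640888 for Ifit1, chr19:34583329-34583528 for Ifit3, chr7:140955962-140956161 for Ifitm2 and chr19:34550494-34550693 for Ifit2.
Ifit1: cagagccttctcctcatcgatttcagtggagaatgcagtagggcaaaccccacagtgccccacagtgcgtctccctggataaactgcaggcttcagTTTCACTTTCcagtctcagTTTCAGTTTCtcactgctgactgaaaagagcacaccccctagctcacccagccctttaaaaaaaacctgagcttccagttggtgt
Ifit3: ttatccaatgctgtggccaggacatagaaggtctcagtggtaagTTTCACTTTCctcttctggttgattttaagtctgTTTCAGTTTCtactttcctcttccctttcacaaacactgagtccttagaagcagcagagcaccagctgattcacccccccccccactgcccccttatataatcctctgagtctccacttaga
Ifitm2: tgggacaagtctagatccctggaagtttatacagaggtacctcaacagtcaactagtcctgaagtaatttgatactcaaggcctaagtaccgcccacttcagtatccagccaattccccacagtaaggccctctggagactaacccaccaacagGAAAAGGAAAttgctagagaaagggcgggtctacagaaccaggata
Ifit2: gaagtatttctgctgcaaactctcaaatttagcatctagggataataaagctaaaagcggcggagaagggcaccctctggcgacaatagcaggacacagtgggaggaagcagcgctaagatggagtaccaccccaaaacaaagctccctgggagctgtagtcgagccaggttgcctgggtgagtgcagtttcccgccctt
The cores of Ifit1 began at -104 and -85 from the start site, those of Ifit3 at -156 and -122, and that of Ifitm2 at -46. In Ifitm3 both cores lay just inside the transcript, at 3 and 20. The same pair of cores as in Ifit1 lies in the window of Ifit1bl2, which starts at 34640743 on the opposite strand, while Ifit1 starts at 34640889. No core was found in the windows of Ifit2, Ifitm1 and Ifitm6, which says only that these letters are not in those windows.

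Of the 9 members, 8 rose in MAMs, and Ifi27 did not pass the test. Calls needed a change of over 2-fold and an adjusted p under 0.05, from the quasi-likelihood test of edgeR with p-values adjusted by Benjamini-Hochberg over all genes tested. Of these genes, 15.3% were called higher in MAMs and 30.3% in either direction, and 56.2% had an adjusted p under 0.05 whatever their fold. In the same 8 members every MAM library lay above every RAM library, as in 23.7% of all genes tested, and the groups were apart in either direction in 44.9%. For each of the 8 the exact two-sided permutation test on log2 CPM (counts per 1000000 counts on genes, with TMM scaling between libraries) gave p = 0.00794, the smallest that 5 against 5 libraries allow. Groups that do not overlap always give this value, so it adds nothing to the separation. The median log2 fold change over the members was 6.17, beside -0.02 over all genes tested. In bulk RNA, fewer cells of a type and less RNA per cell cannot be told apart.

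**Figure D1:**
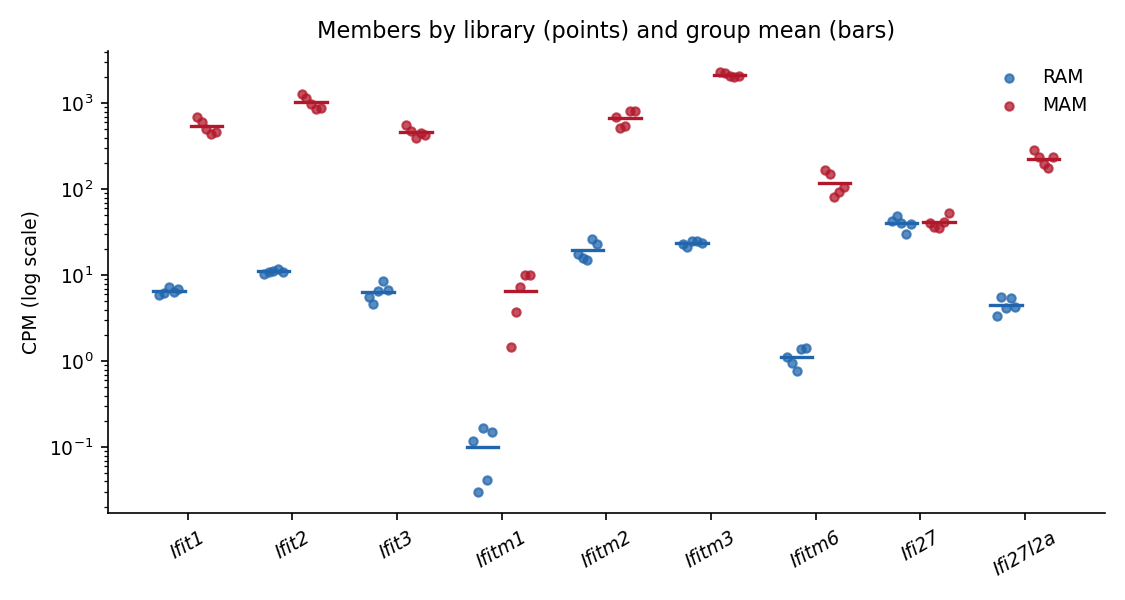
CPM (gene counts scaled to a common library size with TMM, log axis) of the 9 members in each of 5 RAM libraries (blue points) and 5 MAM libraries (red points), with bars for group means. MAM and RAM points are apart for 8 members and overlap for Ifi27, and the MAM points of Ifitm1 spread from 1.48 to 10.2 CPM.

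The 3 Ifit genes rose together. Ifit1, which binds RNA caps, was at 699, 610, 506, 437 and 466 CPM in MAM replicates 1 to 5 and at 5.89, 6.17, 7.33, 6.36 and 6.88 CPM in RAM replicates 1 to 5. The lowest MAM library was far above the highest RAM library, and MAM replicate 1 was the highest. The log2 fold change was 6.38 ± 0.150 (SE, n = 5 per group), or 83.3-fold, with an adjusted p of 4.0e-14 in edgeR's quasi-likelihood test.

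Ifit2, which is known to promote apoptosis, was the most abundant of the 3 in counts. It was at 1288, 1155, 980, 863 and 886 CPM in MAMs and at 10.5, 11.02, 11.1, 11.9 and 11.1 CPM in RAMs. The RAM libraries lay close together, with a coefficient of variation of 4.48% beside 17.7% in MAMs. Its log2 fold change was 6.54 ± 0.131 (SE, n = 5 per group), with an adjusted p of 6.6e-15 in edgeR's quasi-likelihood test.

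Ifit3, whose human counterpart binds and stabilises IFIT1, was at 564, 481, 398, 453 and 424 CPM in MAMs and at 5.67, 4.70, 6.58, 8.70 and 6.69 CPM in RAMs. MAM replicate 1 was again the highest, and in RAMs replicate 4 stood highest. The log2 fold change was 6.17 ± 0.169 (SE, n = 5 per group), with an adjusted p of 2.2e-13 in edgeR's quasi-likelihood test.

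Among the Ifitm genes, Ifitm3 was the most abundant and the steadiest. IFITM3 acts mainly in endosomes, where it restricts influenza virus. It was at 2329, 2284, 2062, 2032 and 2060 CPM in MAMs and at 23.4, 21.6, 25.1, 25.1 and 23.9 CPM in RAMs. The highest MAM library was 1.15 times the lowest, the smallest such spread of the 9 members. Its log2 fold change was 6.50 ± 0.0851 (SE, n = 5 per group), or 90.5-fold, with an adjusted p of 1.7e-16 in edgeR's quasi-likelihood test. It made up 38.4% to 42.8% of the summed CPM of the 9 members in MAM libraries and 18.9% to 22.7% in RAM libraries.

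Ifitm2, a close relative that also resides in endosomes, was at 691, 517, 544, 819 and 822 CPM in MAMs and at 17.9, 15.8, 15.01, 26.6 and 23.0 CPM in RAMs. It was highest in MAM replicates 4 and 5, unlike the Ifit genes. The log2 fold change was 5.11 ± 0.199 (SE, n = 5 per group), with an adjusted p of 1.0e-11 in edgeR's quasi-likelihood test, the lowest fold change of the 8 genes that rose.

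Ifitm6 had the highest fitted log2 fold change of the members, 6.72 ± 0.259 (SE, n = 5 per group), with an adjusted p of 9.2e-12 in edgeR's quasi-likelihood test. It was at 167, 149, 81.9, 92.0 and 105 CPM in MAMs and at 1.11, 0.961, 0.766, 1.40 and 1.43 CPM in RAMs. MAM replicates 1 and 2 were above the other three.

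Ifitm1, found mainly at the plasma membrane, was the least abundant member and the most uneven. It had 73, 202, 326, 558 and 708 counts in MAM replicates 1 to 5 and 7, 2, 8, 2 and 7 counts in RAM replicates 1 to 5. MAM replicates 4 and 5 were at 10.1 and 10.2 CPM and replicate 1 at 1.48 CPM, a 6.85-fold range within the group. The groups did not overlap, since every RAM library was at or under 0.166 CPM. The log2 fold change was 6.01 ± 0.699 (SE, n = 5 per group), with an adjusted p of 2.8e-06 in edgeR's quasi-likelihood test. On the deposited FPKM the difference by limma was 2.63 on the log2(FPKM + 1) scale and 4.91 on the log2(FPKM + 0.1) scale, which understate the change of a gene this low in RAMs. The summed counts, 1867 in MAMs and 26 in RAMs, gave a 70.7-fold ratio with an exact 95% interval of 48.1 to 109 that covers counting error only.

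The pair on chromosome 12 parted. Ifi27l2a was at 286, 238, 199, 178 and 240 CPM in MAMs and at 3.37, 5.60, 4.16, 5.42 and 4.28 CPM in RAMs. The groups were apart, and the log2 fold change was 5.64 ± 0.177 (SE, n = 5 per group), with an adjusted p of 9.8e-13 in edgeR's quasi-likelihood test.

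Ifi27, whose protein is found in mitochondria and at the nuclear envelope, was at 40.4, 36.1, 35.8, 41.5 and 53.5 CPM in MAMs and at 42.9, 48.7, 40.1, 30.2 and 39.3 CPM in RAMs. The groups overlapped, with the highest value in a MAM library and the lowest in a RAM library. Its log2 fold change was 0.04 ± 0.148 (SE, n = 5 per group), with a 95% interval of -0.30 to 0.39 and an adjusted p of 0.820 in edgeR's quasi-likelihood test. The sign of this value turned under other scalings and without MAM replicate 5 or RAM replicate 4, where it was -0.065 and -0.047.

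**Figure D2:**
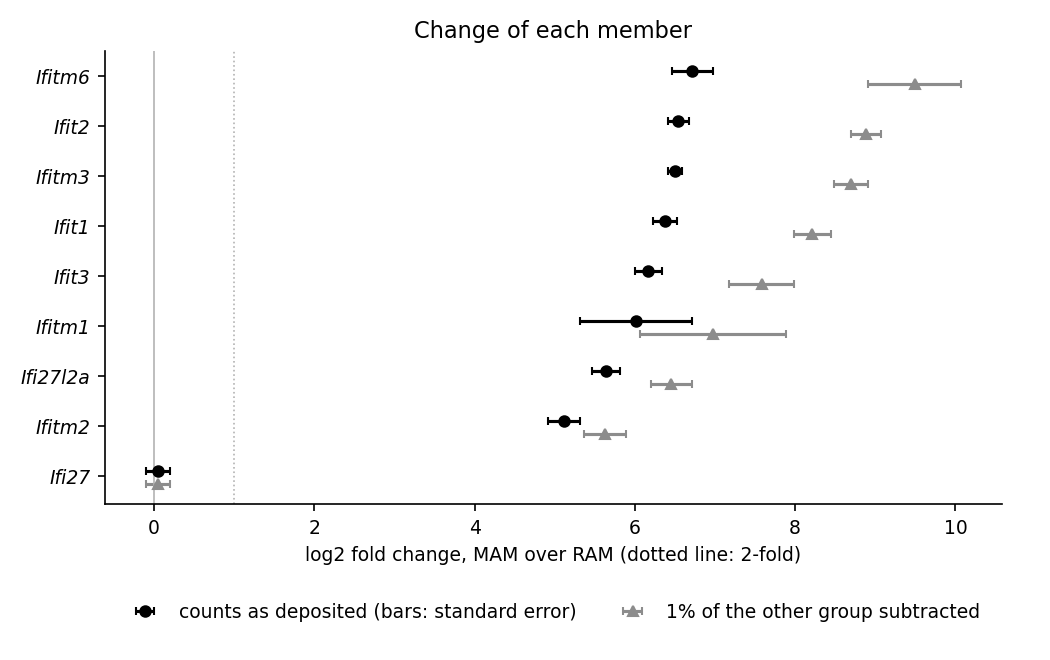
Log2 fold change of MAMs over RAMs for each member (points, with standard errors as bars) in the edgeR fit of the counts as deposited (black circles) and with 1% of the other group's mean level subtracted (grey triangles). The 8 called members lie between 5.11 and 6.72 in the fit as deposited, and Ifi27 lies at 0.04 and 0.05.

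In RAMs the 8 called members stood at a few percent or less of their MAM level. Scaled by library totals alone, the RAM level was 1.11% of the MAM level for Ifitm6, 1.25% for Ifit2, 1.28% for Ifitm3, 1.40% for Ifit1 and 1.62% for Ifit3. It was 1.77% for Ifitm1, 2.32% for Ifi27l2a and 3.35% for Ifitm2. Among the 85 genes tested with over 1000 CPM in MAMs, the lowest was 1.06% and 10 were under 1.5%, and Ifitm3 was 1 of these 10. In the other direction, the lowest MAM level among 64 genes over 1000 CPM in RAMs was 0.992% of the RAM level. Only this 1 gene was under 1.5% there, and the second lowest was 2.57%, beside 1.09% in RAMs. With 1% of the other group's mean level subtracted from each library, an alternative chosen after seeing the data, the median over the members moved from 6.17 to 7.58. The log2 fold change was then 9.49 for Ifitm6, 8.88 for Ifit2, 8.69 for Ifitm3, 8.21 for Ifit1, 7.58 for Ifit3, 6.98 for Ifitm1, 6.45 for Ifi27l2a and 5.63 for Ifitm2. The size of the folds thus differed with and without this subtraction. For a gene higher in MAMs this subtraction can only widen the difference, so it is no check of the calls. Levels under 1% did occur among genes under 1000 CPM in MAMs, such as the interferon targets Ifi44 (0.768%) and Mx2 (0.931%). The source of these low levels was not tested.

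**Figure D3:**
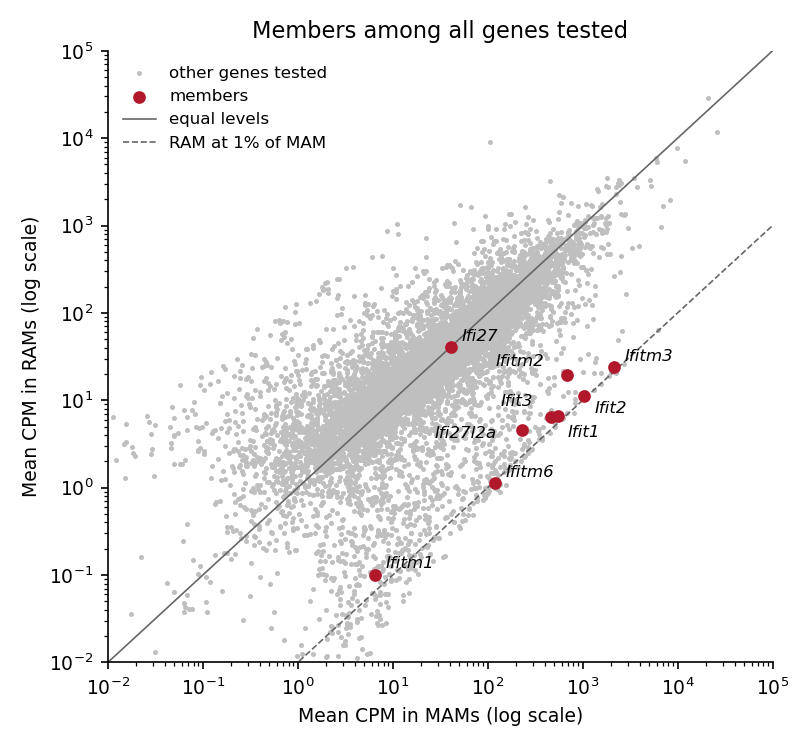
Mean CPM in MAMs (horizontal, log axis) against mean CPM in RAMs (vertical, log axis) for the genes tested with a mean above 0 in both groups (grey) and the 9 members (red), with a solid line at equal levels and a dashed line at a RAM level of 1% of the MAM level. Ifi27 lies at the line of equal levels and the other 8 lie near the dashed line, with Ifitm2 and Ifi27l2a the farthest from it.

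Changes within a family were compared through the ratio of the counts of a pair of members in each library, which needs no scaling between libraries. Of 10 pairs, 4 passed the exact two-sided permutation test after Benjamini-Hochberg adjustment over the 10. The log2 ratio of Ifitm2 to Ifitm3 was -1.69 ± 0.368 in MAMs and -0.31 ± 0.327 in RAMs (SD, n = 5), a difference of -1.38 with exact permutation p = 0.00794 and adjusted p = 0.0265. Ifitm2 thus gained less than Ifitm3, and the libraries did not overlap.

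The ratio of Ifitm2 to Ifitm6 differed by -1.57 and that of Ifi27 to Ifi27l2a by -5.60, each with exact permutation adjusted p = 0.0265. In MAMs Ifi27l2a had more counts than Ifi27 in every library, and in RAMs fewer. The ratio of Ifit1 to Ifit2 differed by -0.16, with exact permutation adjusted p = 0.0397 and overlapping libraries. That call did not hold on FPKM (adjusted p = 0.0907, exact permutation) or without any one of MAM replicates 2, 3, 4 and 5. The other 6 pairs did not pass, among them Ifit2 to Ifit3 with a difference of 0.34 and exact permutation adjusted p = 0.0794, which passed without RAM replicate 2 (0.45, adjusted p = 0.0317, exact permutation). Ifitm3 to Ifitm6 differed by -0.19 with exact permutation adjusted p = 0.444.

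Levels of different genes were compared in the deposited FPKM, which are scaled by transcript length. In MAMs Ifitm3 was highest at 5752 ± 471 FPKM (SD, n = 5), followed by Ifitm2 at 1460 ± 318 and Ifi27l2a at 846 ± 164. The libraries of these 3 did not overlap from one gene to the next. Ifitm6 (282 ± 93.1), Ifit2 (225 ± 39.8), Ifit3 (222 ± 30.7) and Ifit1 (184 ± 37.4) followed, and each overlapped the next. Within libraries, Ifit3 was above Ifit1 in all 5, Ifitm6 above Ifit2 in 4 and Ifit2 above Ifit3 in 3. Ifi27 at 39.7 ± 7.80 and Ifitm1 at 7.07 ± 4.98 FPKM were lowest and apart from the rest.

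In RAMs Ifitm3 was again highest, at 63.2 ± 4.03 FPKM (SD, n = 5), but Ifi27 at 46.8 ± 7.99 came next and overlapped Ifitm2 at 44.3 ± 10.9. Ifi27l2a stood apart from both at 17.1 ± 3.15 FPKM. Ifit3 (3.21 ± 0.751), Ifitm6 (2.66 ± 0.790), Ifit2 (2.45 ± 0.125) and Ifit1 (2.23 ± 0.245) overlapped from each to the next. Within libraries, Ifit3 was above Ifitm6 in all 5, Ifitm6 above Ifit2 in 3 and Ifit2 above Ifit1 in 4. Ifitm1 was at or under 0.240 FPKM and listed at 0 in 1 library. The ratio of Ifitm3 to Ifitm2 in FPKM was between 3.01 and 5.63 in MAM libraries and between 1.12 and 1.83 in RAM libraries.

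**Figure D4:**
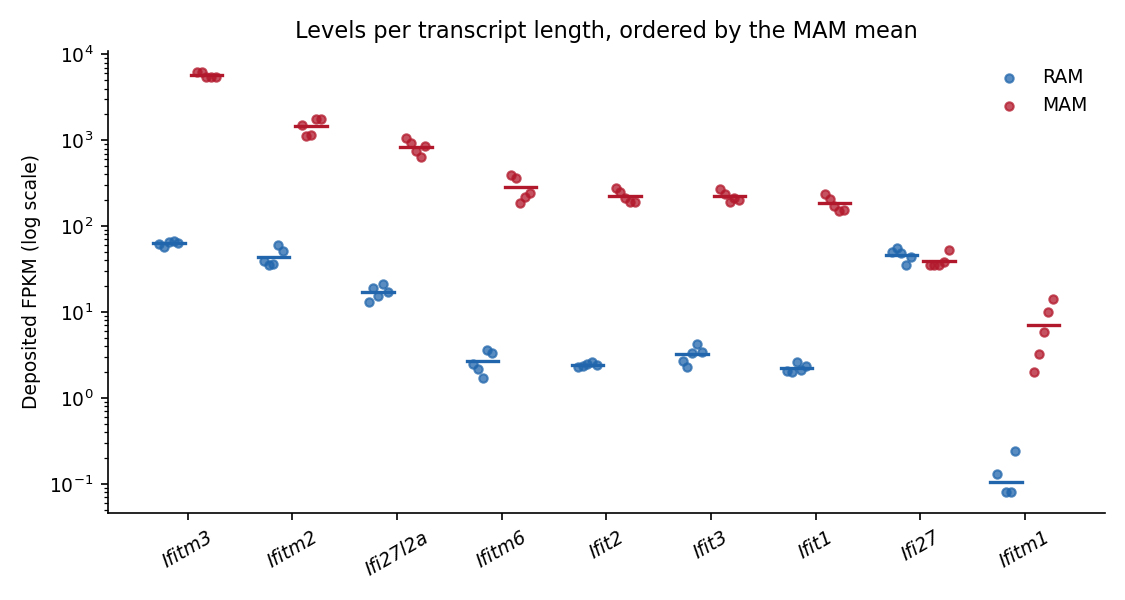
Deposited FPKM (log axis) of the 9 members, ordered by the MAM mean, in 5 RAM libraries (blue points) and 5 MAM libraries (red points), with bars for group means. Ifitm3 leads in both groups, and Ifi27 is eighth of the members in MAMs and second in RAMs. The RAM library in which Ifitm1 is listed at 0 is not drawn.

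Within MAMs the members did not move together in full. Replicate 1 held the highest value of 6 members and the lowest of Ifitm1, and replicate 5 the highest of the other 3. The summed CPM of the 3 Ifit genes ran from 1752 in MAM replicate 4 to 2551 in MAM replicate 1, and from 21.9 to 26.9 in RAMs. The 4 Ifitm genes summed to between 2696 and 3189 CPM in MAMs and between 38.4 and 53.1 CPM in RAMs. Around its group mean on the log2 CPM scale, Ifitm1 lay between -1.82 and 0.93 in MAM libraries, and the other 8 members lay between -0.48 and 0.55.

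Marker genes of other cells also varied among the MAM libraries. The summed CPM of 10 neutrophil markers was 124, 149, 218, 312 and 218 in MAM replicates 1 to 5, and that of 8 endothelial markers 28.1, 59.3, 85.1, 114 and 77.5. Both were lowest in replicate 1, where Ifitm1 was lowest, and highest in replicate 4. Ifitm1 was at 10.1 CPM in replicate 4 and at 10.2 CPM in replicate 5, where both sums were lower than in replicate 4. Csf3r made up most of the neutrophil sum, with 98.5 CPM in replicate 1 and 210.3 CPM in replicate 4, and Ly6g was at 0 in replicates 4 and 5. The 5 alveolar macrophage markers summed to 439 CPM in replicate 1 and 152 CPM in replicate 4, through Marco alone (389 and 89.7 CPM), while Fabp4 (8.66 and 16.5 CPM) and Pparg (35.6 and 39.8 CPM) were not lower in replicate 4. In RAMs, where Ifitm1 was near 0, the neutrophil markers summed to between 140 and 204 CPM, with Ly6g at 0 in every library, and the endothelial markers to between 127 and 214 CPM, mostly Vwf. In MAMs the endothelial marker Cldn5 was at 0 in every library. All cells were sorted on CD45, F4/80 and MRC1, and the part of neutrophils and endothelial cells in the Ifitm1 values was not tested.

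**Figure D5:**
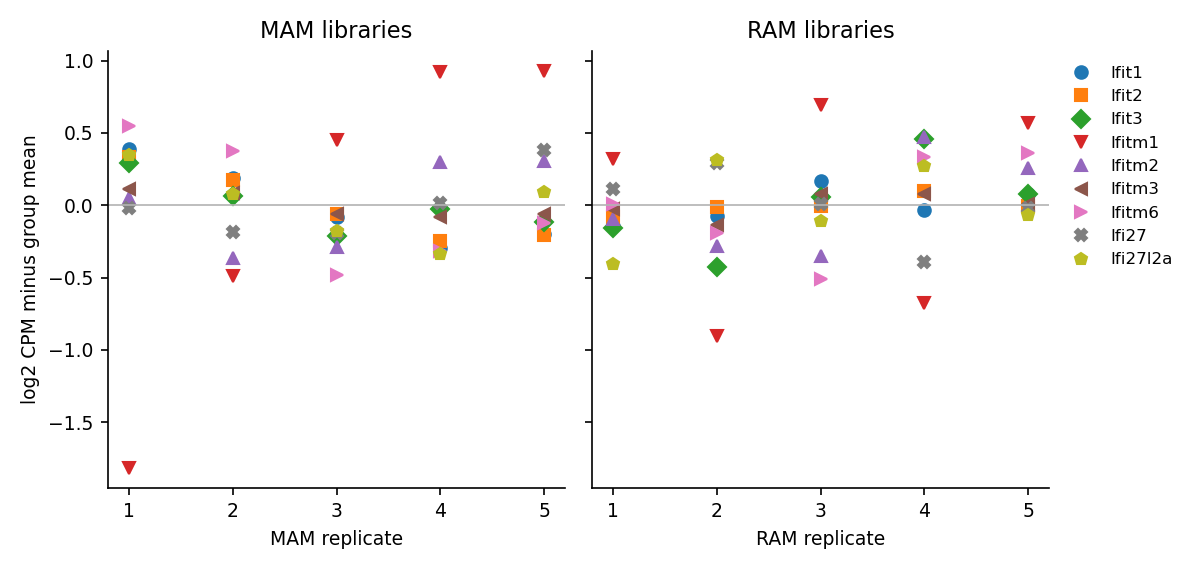
Difference of each library's log2 CPM from its group mean (vertical) for the 9 members in MAM libraries (left) and RAM libraries (right), by replicate (horizontal). Ifitm1 lies at -1.82 in MAM replicate 1, and the other 8 members stay between -0.48 and 0.55 in the MAM libraries.

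The genes of the sorting markers CD11B and CD11C differed between the groups in the direction of the sort. Itgam, which encodes CD11B, was at 6270 ± 417 CPM in MAMs and 64.3 ± 5.04 CPM in RAMs, and Itgax, which encodes CD11C, at 171 ± 39.4 and 991 ± 91.8 CPM (SD, n = 5). The alveolar macrophage marker Siglecf was at 3.85 ± 0.680 CPM in MAMs and 333 ± 35.6 CPM in RAMs (SD, n = 5). Of the 5 alveolar macrophage markers, 4 were called lower in MAMs. The other, Marco, was at 232 ± 122 CPM in MAMs and 368 ± 97.7 CPM in RAMs (SD, n = 5), and the groups overlapped. Its adjusted p was 0.0762 in edgeR's quasi-likelihood test. The 5 classical monocyte markers, all called higher in MAMs, summed to between 742 and 919 CPM there and to between 18.7 and 34.3 CPM in RAMs, with none at 0. The cells were sorted as LY6C-, and Ly6c2 was at 10.5 ± 4.96 CPM in MAMs (SD, n = 5). The part of classical monocytes in the members' values was not tested. The epithelial markers summed to between 5.27 and 22.2 CPM in MAMs and to between 440 and 568 CPM in RAMs, where Krt19 and Epcam made up most of the sum. T and NK, B and fibroblast markers summed to at most 40.6 CPM in any library.

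The files held 7 further genes of these families, and 4 of them were tested. Ifit1bl1 and Ifit3b rose, with log2 fold changes of 6.48 ± 0.255 and 6.21 ± 0.275 (SE, n = 5 per group) and adjusted p of 1.2e-11 and 4.5e-11 in edgeR's quasi-likelihood test. Ifit1bl1 was at 343 ± 125 FPKM in MAMs (SD, n = 5), between 1.14 and 1.88 times Ifit2 in the same library. Ifit3b shares sequence with Ifit3 and had far fewer counts, with between 5.44 and 6.86 counts of Ifit3 for each count of Ifit3b in MAM libraries.

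Ifitm10 went the other way and fell in MAMs. It was at 0.610, 2.83, 1.92, 0.217 and 1.41 CPM in MAMs and at 22.7, 19.3, 21.2, 16.5 and 25.98 CPM in RAMs. All RAM libraries were above all MAM libraries, and the log2 fold change was -3.92 ± 0.503 (SE, n = 5 per group), with an adjusted p of 8.1e-06 in edgeR's quasi-likelihood test, beside 15.1% of all genes tested called lower. Ifitm10 lies apart from the Ifitm cluster (chr7:142325837-142373753) and overlaps Gm49369 on the same strand.

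Ifitm5, a gene known from bone, was at 1.78 ± 1.19 CPM in MAMs and 0.803 ± 0.542 CPM in RAMs (SD, n = 5), with an adjusted p of 0.246 in edgeR's quasi-likelihood test. Of the genes not tested, Ifit1bl2 had between 82 and 356 counts in MAM libraries and 6, 1, 0, 0 and 0 in RAM libraries. Ifi27l2b had 34 counts in MAM replicate 5, 1 count in RAM replicate 4 and none elsewhere. Ifitm7 had 1 count in all. A count of 0 allows up to 3 counts.

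Of a list of 36 interferon pathway genes that holds none of the members, 27 were tested, and 23 were called higher and 0 lower in edgeR's quasi-likelihood test, beside 15.3% and 15.1% of all genes tested. The other 4 were not called. The median log2 fold change over the 27 tested was 2.76. The 8 interferon ligands were not tested. Ifnb1, which encodes interferon beta, had 16 and 8 counts in MAM replicates 3 and 5 and 0 in the other libraries. Ifng had 1 and 23 counts in RAM replicates 2 and 3 and 0 elsewhere, and the 6 others had 0 counts in every library.

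Of the receptor chains, 4 of 5 tested rose. Ifnar1, a chain of the type I interferon receptor, was at 255 ± 22.3 CPM in MAMs and 57.2 ± 3.03 CPM in RAMs (SD, n = 5), a log2 fold change of 2.15. Il10rb, a chain shared with interferon lambda receptors, had a log2 fold change of 2.05, and Ifngr1, a chain of the interferon gamma receptor, had -0.11 with an adjusted p of 0.281 in edgeR's quasi-likelihood test. Among the kinases Jak2 rose (1.36), while Jak1 (0.60) and Tyk2 (-0.38) stayed under 2-fold.

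Of the 6 transcription factors 5 rose, led by Irf7, a factor that amplifies interferon production, at 624 ± 37.4 CPM in MAMs and 11.1 ± 1.35 CPM in RAMs (SD, n = 5). In log2 terms the change was 5.81 for Irf7 and 2.76 for Stat2, and it was -0.21 for Irf3, which was not called. All 3 feedback genes rose, with 6.27 for Usp18, which restrains the type I receptor, 4.43 for Socs3 and 3.13 for Socs1. All 10 other interferon targets rose, from 1.83 for Ifi35 to 7.22 for Ifi44, with a median of 6.37. Mx2, an antiviral GTPase, had 6.95 and Oas1a, which senses double-stranded RNA, 3.94.

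Among the 5 genes whose pattern over the 10 libraries was most like the members' average were Phf11d, Plbd1, Msr1 and Wfdc17. Their root mean square difference from it, in log2 CPM centred on each gene's mean, was between 0.167 for Phf11d and 0.218 for Wfdc17. The average includes Ifi27, which was not called and lay 2.68 from it. The nearest member, Ifitm2, lay 0.280 from it. Msr1, a scavenger receptor, was at a mean of 2345 CPM in MAMs and 49.2 CPM in RAMs. This likeness is a description over libraries that share the 2 groups.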

How the data were processed

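The 9 members and the gene lists were chosen with earlier results of these data known. The authors aligned paired reads of 100 bases to GRCm38 with TopHat 2.0.13 and took counts of uniquely mapped reads for each gene with HTSeq 0.6.1 on UCSC RefGene models. The strand setting is not given in the sources used here. The deposited files hold whole-number counts per library and, in 1 table, FPKM values from Cufflinks 2.2.1 (tools and versions from the submitters' processing notes and the study's methods). Counts on genes were 55391447 to 87523247 per library in MAMs and 50746305 to 72150650 in RAMs. Lines that name no gene, 54.6% to 58.3% of all in MAMs and 62.2% to 64.1% in RAMs, were left out. No libraries were identical.

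Genes that reached a mean FPKM of 1 in MAMs or in RAMs and had a count above 0 were tested with edgeR 4.0.16 (R 4.3.3) by its quasi-likelihood test, with TMM normalization, no covariate and Benjamini-Hochberg adjustment. Log2 CPM had a prior count of 2, and count ratios a pseudocount of 0.5. The fit was tested on simulated data with known changes. Positions came from GENCODE M21 and promoters from RefSeq. The 95% interval of a log2 fold change was set from its standard error with the residual degrees of freedom.

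All members and family genes were named. Of each role in the pathway list, genes with the largest and smallest changes could be named, and Ifnb1 and Ifng were named beyond this rule after their values were seen. The 5 most alike genes were ranked by root mean square difference, and some values of single genes are not reported here. Alternatives were RLE and upper-quartile scaling, DESeq2 1.42.0, other filters, limma 3.58.1 on log2(FPKM + 1) and log2(FPKM + 0.1), a replicate block, each library left out, and 1% of the other group subtracted. Same-numbered MAM and RAM libraries did not deviate together.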

Additional observations from a re-analysis of the deposited data

Results flagged for a closer look

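Ifitm5 in RAMs stood out for 1 library. RAM replicate 1 had 1 count, beside 38 to 103 in the other RAM libraries, and its gap to the nearest of these was 0.806 of the group's range, above the limit for 5 libraries. Of 26 groups of libraries looked at in this way it was the only one past the limit, and chance passes about 1 in 20.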

How the results depend on the processing

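All 8 calls of members held under every alternative run, with 23 or 24 pathway genes called, although subtracting 1% of the other group could only widen the 8 differences. The median log2 fold change over the members was 5.73 with limma on log2(FPKM + 1) and 7.58 with 1% of the other group subtracted, and between 6.06 and 6.29 with a library left out. Ifitm1 was at 2.63 with limma on log2(FPKM + 1), where a pseudocount of 1 exceeds its RAM level. Upper-quartile scaling moved the median of all genes by -0.16. Ifi27, never called, turned to -0.12 under upper-quartile scaling and to -0.23 and -0.24 with limma on log2(FPKM + 1) and log2(FPKM + 0.1), and lay between -0.065 (without MAM replicate 5) and 0.12 (without RAM replicate 2) with a library left out, with -0.047 without RAM replicate 4.

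Of the pair ratios, Ifit1 to Ifit2 was no longer called on FPKM (-0.16) and lay between -0.20 and -0.12 with a library left out. Ifit2 to Ifit3 ran from 0.25 to 0.45 and was called at the upper end. Ifitm1 to Ifitm2 turned from 0.72 to -0.14 on FPKM, never called. The cause was not tested.

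Deviations of same-numbered MAM and RAM libraries correlated between -0.04 and 0.03, and 2 of 5 MAM libraries correlated best with their own number. With the replicate number as a block, 8 members and 23 pathway genes were called. Depth limits Ifitm1 in RAMs, where libraries held 2 to 8 counts.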

Other observations

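Of 7 genes whose proteins are known to act on or beside these families, 1 was called in edgeR's quasi-likelihood test, beside 30.3% of all genes tested, so the count shows nothing about these genes as a list. Nedd4, a ubiquitin ligase that acts on IFITM3, was at 11.6 ± 5.19 CPM in MAMs and 1.57 ± 0.648 CPM in RAMs (SD, n = 5), a log2 fold change of 2.89. Setd7, a methyltransferase that acts on IFITM3, had -0.72 and Zdhhc20, a palmitoyltransferase, had 0.53. Zmpste24, a protease that acts beside IFITM proteins, had -0.06 and Skp2, which has been linked to IFI27, had 0.08. For Cmtr1, which was not called, the 2 measures differed. It was at 1.81 ± 1.81 CPM in MAMs and 0.672 ± 0.303 CPM in RAMs (SD, n = 5). In the deposited FPKM it was at 25.6 ± 2.55 in MAMs and 11.1 ± 1.34 in RAMs (SD, n = 5). The cause was not tested.

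The files held 19 other genes within 100 kb of a member, and 10 were tested. Pkp3 and Pgghg, both near the Ifitm cluster, were called higher in MAMs in edgeR's quasi-likelihood test, with log2 fold changes of 4.93 and 1.27. That is 2 of 10, beside 15.3% of all genes tested, which is near the background. Pkp3 was low in both groups, at 4.401 ± 2.81 CPM in MAMs and 0.143 ± 0.180 CPM in RAMs (SD, n = 5). Beside the Ifit genes, Lipa, a lysosomal lipase, was at 1068 ± 99.4 CPM in MAMs and 1161 ± 217 CPM in RAMs (SD, n = 5), and Ch25h had a log2 fold change of 0.93. Beside Ifi27, Ddx24 had 0.73 and Otub2 had -0.07. None of these 4 was called.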
